A study of Zeugodacus cucurbitae with 52 samples.

Results

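Gene expression in whole 5-d-old pupae, the middle of the pupal stage, was compared with that in whole 1-d-old pupae, the early pupal stage, of the melon fly Zeugodacus cucurbitae, a tephritid pest of cucurbit fruit. The comparison rests on 8 libraries, 4 of each age, out of 52 libraries of 13 life stages, of which the first was the egg and the last the 9-d-old adult of either sex. Libraries were assigned to a day by their labels alone, and every gene of the expression table entered the comparison. Each library held RNA from a pool of 3 whole pupae of unstated sex. The pupae came from an untreated laboratory culture kept at constant temperature, humidity and day length, so the groups differed in age alone as far as the labels state. The pools were named biological replicates, but the labels do not say whether they came from separate cages. The p-values and standard errors (SE) thus measure the spread between pools. This spread was estimated within all 13 stages and not from the 8 libraries alone. RNA was taken from the whole body, so fewer cells of a type and less RNA per cell cannot be told apart.

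In flies the pupa forms inside the hardened skin of the last larval stage. Pulses of the steroid hormone 20-hydroxyecdysone act through a receptor made of the ecdysone receptor and Ultraspiracle, which turns on a cascade of nuclear receptors and transcription factors. Early in the pupa many larval tissues, among them gut, muscles and fat body, are broken down, while adult structures grow from imaginal discs and histoblasts. Later the adult epidermis lays down chitin and cuticle proteins, the flight muscles assemble, photoreceptors mature and, in males, sperm develop.

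The 5-d-old pupae held far more transcript for cuticle proteins and for contractile proteins of muscle than the 1-d-old pupae. They held far less for several small protease inhibitors, for the regulator Krueppel homolog 1 and for 3 of the 6 Broad-complex genes. Of these 3 genes, 1 fell short of the threshold after another scaling. Of 17097 genes tested, 1226 were higher and 852 lower on day 5, where a call needed an adjusted p under 0.05 (limma on log2(TPM + 1), adjusted over all genes tested) and an absolute log2 fold change above 2. This made 12.2% of the genes, 7.17% higher and 4.98% lower, and these shares are the background for the counts given below. Where members are counted by direction alone, the background is 7123 of 17097 genes with a positive log2 fold change as deposited. TPM is a transcript level that accounts for gene length and sums to the same total in every library. Fold changes are on the scale of TPM + 1 and understate the change of low genes. The 4 libraries of one day lay apart from the 4 of the other in 1053 of the higher and 816 of the lower genes, and in 55.6% of all genes tested. The median change was -0.09 over all genes as deposited and 0.10 after median-of-ratios scaling, and with that scaling 1439 genes were higher and 469 lower, or 8.42% and 2.74% of those tested, so that the higher share of the calls moved from 59.0% to 75.4%. Of these, 1224 of the higher and all 469 of the lower genes were also called as deposited.

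**Figure D1:**
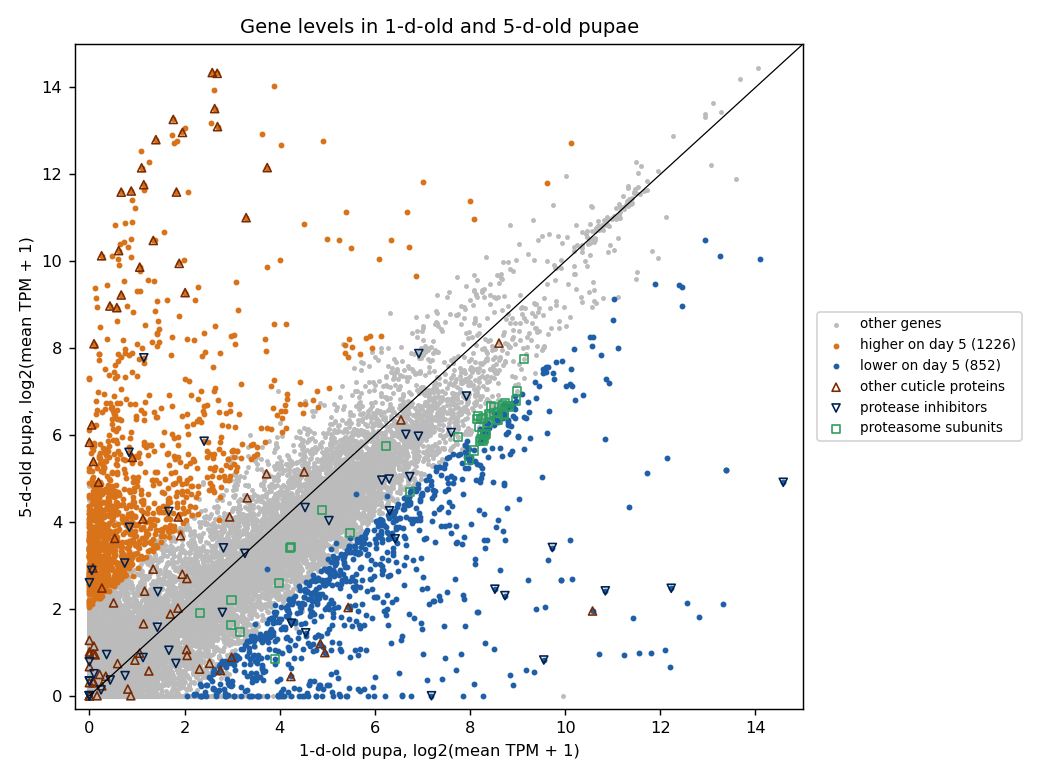
Mean level of each gene in 1-d-old pupae (x axis) and 5-d-old pupae (y axis), both as log2(mean TPM + 1) of 4 libraries, with the line of equal level. Orange and blue points are the 1226 genes called higher and the 852 called lower on day 5, and open symbols mark every member of 3 lists. Of the 83 cuticle proteins without a larval or pupal name, 34 were called higher and 7 lower, and those that rose most lie at the upper left. Several protease inhibitors lie at the lower right, and the proteasome subunits form 1 tight group below the line.

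The libraries of 1-d-old pupae resembled each other more than those of 5-d-old pupae did. On log2(TPM + 1), Pearson's r across genes was 0.971 to 0.974 between libraries of day 1, 0.918 to 0.966 between libraries of day 5 and 0.758 to 0.813 between days. Replicate 2 of day 5 stood apart, and without it the day 5 range was 0.962 to 0.966. In that library 407 genes lay more than 2 log2 units below each of the other 3 libraries of the day, against 11 to 29 genes for the others. The study's quality table also lists it with a low mapping rate. Of the 407 genes, 383 (94.1%) belonged to the 858 genes (4.70% of the table) whose mean was over 2 log2 units higher in 1-d-old adult males than in females, here called male genes. Without this library 1367 genes were higher (8.0%) and 867 lower (5.07%), and 1195 and 811 of these were also called with it.

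Cuticle genes gave the largest rises of all genes tested. These proteins bind chitin fibres and form the layers of the body wall. Of 83 measured genes in the list of cuticle proteins without a larval or pupal name, 34 rose and 7 fell, with a median log2 fold change of 1.12. Of 40 larval cuticle protein genes 11 rose and 1 fell (median 1.299), and of 30 pupal cuticle protein genes 7 rose and 0 fell (median 0.35). None of the cuticle genes that rose was a male gene. The summed level of the first list was 2007, 1928, 2939.7 and 2324 TPM in the 4 libraries of day 1 and 109997, 126759, 115874 and 125787 TPM in those of day 5. The list thus went from 0.230% to 11.96% of all transcripts, 52.01-fold, and day 5 replicates 2 and 4 held the most. The larval list was higher 62.6-fold in sum, from 298 to 18639 TPM, and the pupal list was higher 9.42-fold, from 444 to 4182 TPM. Most of the larval sum on day 5 was 1 gene, larval cuticle protein A2B (gene732), with a mean of 15694 TPM.

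The gene with the largest rise among those named by rule was cuticle protein 16.5, isoform A (gene8029), with 1.88, 2.71, 2.32 and 13.1 TPM in the libraries of day 1 and 19734, 22034, 20527 and 20779.7 TPM in those of day 5, with a log2 fold change of 12.10 (SE 0.37, limma adjusted p = 5.21e-29). Cuticle protein 8 (gene1535) held 3.06, 2.20, 2.41 and 14.1 TPM on day 1 and 20089.5, 20158, 20797 and 21033 TPM on day 5, a log2 fold change of 11.98 (SE 0.41, limma adjusted p = 4.39e-27). In both genes 1 library of day 1, replicate 4, was several times above the other 3 libraries of that day. Days without overlap were a condition of the rule for the largest rises, which named both. A cuticle protein with no further name (gene10439) rose from 2.40 ± 2.03 to 9836 ± 1029.9 TPM (SD, n = 4), a log2 fold change of 11.65. Adult cuticle protein 1-like (gene11479) rose from 5.21 ± 3.13 to 11691 ± 1277 TPM. Names did not separate the genes by stage: larval cuticle protein A2B (gene732) held 3.29, 4.16, 2.35 and 10.7 TPM on day 1 and 13681, 16925, 15016 and 17155 TPM on day 5, and it reached 24445 ± 1297 TPM in 9-d-old pupae. Larval cuticle protein A3A (gene2191) rose by 9.79 log2 units to 1345 ± 31.5 TPM. Pupal cuticle protein Edg-78E-like (gene7968), named after an ecdysone-dependent gene of Drosophila, rose by 9.73 log2 units to 1381 ± 54.0 TPM, and its level was 40.8 ± 12.2 TPM on day 9. The levels of gene8029 and gene1535 on day 9 were 1537 ± 168 and 409 ± 52.1 TPM, below those of day 5.

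Several structural genes went the other way. The endocuticle structural glycoprotein SgAbd-2 (gene88), which carries the name of a locust cuticle protein, held 1246, 1177, 2235 and 1445 TPM on day 1 and 3.74, 3.14, 3.47 and 1.11 TPM on day 5, a log2 fold change of -8.64 (SE 0.21, limma adjusted p = 8.95e-33). Cuticle proteins 16.5-like gene531 and gene530 fell by 4.18 and 3.62 log2 units to 0.990 ± 1.45 and 1.297 ± 1.42 TPM, and stood at 1006 ± 134 and 1242 ± 276 TPM in 9-d-old pupae. Larval cuticle protein LCP-17 (gene9507) fell from 124 ± 76.7 to 2.21 ± 0.791 TPM. Genes of other annotation rose to the level of the cuticle genes: keratin, type I cytoskeletal 10 (gene4048) had 13.6, 8.41, 14.2 and 18.4 TPM on day 1 and 16933, 17161, 16441 and 16925 TPM on day 5, and ice-structuring glycoprotein (gene9097) rose by 11.42 log2 units to 7712 ± 708 TPM. Keratin-associated protein 19-2 (gene8028) rose by 11.69 log2 units to 5959 ± 109 TPM. These names come from vertebrate proteins and state no function in flies.

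Enzymes that tan and remodel cuticle moved in both directions. Of 37 tanning and pigment enzymes 4 rose and 6 fell. Laccase-5 (gene3243), of a family that oxidises catechols during tanning, rose from 0.995 ± 0.245 to 273 ± 28.7 TPM, a log2 fold change of 7.10. The yellow family, linked to pigment in Drosophila, was split: gene13142 rose from 3.37 ± 0.756 to 120.2 ± 1.07 TPM, whereas gene10937 fell from 615 ± 44.3 to 59.7 ± 14.6 TPM. Tyrosine 3-monooxygenase (gene8401), which makes the DOPA that tanning starts from, held 368, 275, 252 and 354 TPM on day 1 and 10.5, 42.6, 8.54 and 6.97 TPM on day 5. It fell by 4.47 log2 units, with replicate 2 the highest library of day 5, and stood at 4417 ± 1075 TPM on day 9. The transporter scarlet (gene623), which loads eye pigment precursors, rose from 0.323 ± 0.142 to 12.9 ± 0.706 TPM. Of 22 genes for chitin synthesis and turnover 1 rose and 3 fell, and 3 were higher with median-of-ratios scaling. The genes called were chitinases, which cut chitin: endochitinase gene11661 fell from 187 ± 11.3 to 14.2 ± 1.90 TPM, while probable chitinase 3 gene781 rose from 16.5 ± 8.40 to 373 ± 28.8 TPM. Of the 5 genes in the list for apical matrix and the hair or bristle cytoskeleton, singed (gene5583), the actin-bundling fascin of Drosophila bristles, fell from 122 ± 3.60 to 16.2 ± 2.53 TPM. The villin-like actin bundler quail (gene6579) rose from 0.685 ± 0.473 to 41.9 ± 14.7 TPM.

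The largest fall among the annotated genes named by rule was that of a gene with a plant protein's name. Gibberellin-regulated protein 14-like (gene8986), whose name states no function here, held 6114, 7422, 7359.6 and 7749 TPM on day 1 and 4.63, 1.42, 1.07 and 2.92 TPM on day 5, a log2 fold change of -11.10 (SE 0.34, limma adjusted p = 8.4e-29). Extensin-like gene8985 fell from 10715 ± 1193 to 35.4 ± 17.0 TPM, and repetitive proline-rich cell wall protein 1-like gene8980 from 1683 ± 586 to 0.958 ± 0.377 TPM. Prolyl 4-hydroxylases, enzymes that hydroxylate proline in collagen-type chains, were also among the falls named by rule: subunit alpha-1 (gene3327) went from 272, 333, 266 and 208 TPM to 0.170, 0.180, 0.260 and 0.220 TPM and subunit alpha-2 (gene1193) from 369, 384, 323 and 364 TPM to 1.18, 1.13, 1.33 and 0.830 TPM. Days without overlap were a condition of the rule that named both genes. Lysyl oxidase homolog 2A (gene7194), which cross-links such chains in other animals, was chosen after its values were seen and fell from 177 ± 21.4 to 0.825 ± 0.384 TPM. Another prolyl 4-hydroxylase, subunit alpha-2 gene3326, likewise chosen afterwards, rose from 0.805 ± 0.159 to 12.1 ± 0.531 TPM.

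The most abundant transcript of the 1-d-old pupa nearly disappeared. Kunitz-type proteinase inhibitor SHTX-3-like (gene2467), of a family of small secreted inhibitors of serine proteases, held 23089, 21902, 23276 and 29991 TPM on day 1 and 38.5, 20.9, 26.8 and 30.1 TPM on day 5, a log2 fold change of -9.69 (SE 0.54, limma adjusted p = 1.03e-19). Among 49 tested protease inhibitors 12 fell and 6 rose. The summed level of all 50 of the list was 33668, 30902, 34616 and 41077 TPM in the libraries of day 1 and 1428, 1248, 1077 and 912 TPM in those of day 5. The sum on day 5 was thus 30.1-fold lower, while the median member changed by only -0.34. The fall of the sum rested on few genes: Kunitz AXPI-II-like gene2468 fell from 4801 ± 749 to 4.55 ± 1.94 TPM, and the inhibitor gene2466 from 1838 ± 188 to 4.33 ± 2.83 TPM. Another Kunitz gene rose instead, textilinin-3 (gene8485), from 1.21 ± 0.656 to 218 ± 34.9 TPM. Kunitz AXPI-II-like gene4891 fell from 849 ± 135 to 9.64 ± 3.71 TPM and was back at 647 ± 69.0 TPM on day 9.

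Genes that moved together often lay next to each other. By gene name, 10829 of 13747 named genes matched the RefSeq annotation idZeuCucr1.2, which was used only for gene order, and 10709 tested genes could be ordered. Adjacent refers to the order of these 10709 genes, so genes left out of it may lie between them. Of 921 ordered genes called higher, 289 (31.4%) had an adjacent gene called higher, against 14.6% of the genes not called higher. Of 613 called lower, 149 (24.3%) had an adjacent gene called lower, against 10.1% of the rest. Family members often lie in tandem, and the part of reads shared between near-identical copies in this was not tested. There were 24 runs of 3 or more adjacent higher genes and 11 runs of adjacent lower genes. The longest lower run held 7 genes, among them the extensin-like gene8985, gene8986 and the proline-rich gene8980 described above. It also held the uncharacterized gene8984, which went from 1897, 1913, 2573 and 3239.6 TPM to 1.41, 0.170, 0.530 and 1.59 TPM. A run of 6 lower genes held the inhibitors gene2462, gene2463, gene2465, gene2466, gene2467 and gene2468, of which gene2462 went from 679, 625, 788 and 904 TPM to 0.440, 1.16, 0.470 and 1.00 TPM. The longest higher run held 6 genes, with cuticle protein 8 (gene1535), cuticle protein 7 (gene1538), adult-specific cuticular protein ACP-20 (gene1537) and cuticle protein 19 (gene1539). In that run gene1537 went from 0.130, 0.130, 0.110 and 0.410 TPM to 1303, 1112, 1034 and 1016 TPM. The runs were picked out after the values were seen.

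Genes of the contractile apparatus rose next. Of 36 measured muscle contractile genes 19 rose and 2 fell, with a median log2 fold change of 2.06 against -0.09 over all genes, and 18 of those that rose were not male genes. Their summed level was 4542, 4655, 4667 and 3990.3 TPM in the libraries of day 1 and 13954, 14824, 13680.0 and 14674 TPM in those of day 5, with no overlap. Actin, indirect flight muscle (gene2198), the thin filament of the wing-beat muscle, held 2.76, 3.26, 2.56 and 4.34 TPM on day 1 and 2912, 3323, 2916 and 3197 TPM on day 5, a log2 fold change of 9.53 (SE 0.32, limma adjusted p = 3.37e-27). Flightin (gene1048), a thick filament protein of the same muscle and 1 of the markers fixed for muscle, held 1.23, 1.13, 0.630 and 0.990 TPM on day 1 and 647, 671, 594 and 612 TPM on day 5. In both genes the libraries of a day lay close together and replicate 2 of day 5 was the highest library. Muscle myosin heavy chain (gene11765), the motor of muscle, rose from 101 ± 40.7 to 2254 ± 107 TPM, and troponin T (gene12425), part of the calcium switch, from 104 ± 6.36 to 1279.9 ± 60.4 TPM. The levels on day 9 were higher still, with 10025 ± 1266 TPM of gene2198 and 12667 ± 328 TPM of gene11765. In third-instar larvae gene2198 and flightin were low, with 1.47 ± 1.62 and 0.82 ± 0.96 TPM. By contrast, gene11765 and gene12425 held 4915 ± 230 and 4233 ± 358 TPM in those larvae, above day 5, so their rise was not particular to flight muscle.

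The actins differed among themselves. Besides gene2198, muscle-specific actin-3 (gene5689) rose from 79.5 ± 6.21 to 1445 ± 103 TPM and actin-5 (gene6460) from 68.8 ± 11 to 309.7 ± 69.2 TPM. In third-instar larvae gene5689 held 2832 ± 168 TPM and gene6460 held 2.34 ± 1.97 TPM. Muscle-specific actin-2 (gene1908) was not called, with 383 ± 50.4 TPM on day 1 and 574 ± 63.0 TPM on day 5. The cytoplasmic actin A3a (gene4397), of the cytoskeleton of all cells, was not called either, with 3613 ± 192 TPM on day 1 and 1197 ± 65.6 TPM on day 5 and a log2 fold change of -1.59. Near-identical actin copies can share reads, so the split between them is uncertain. The 2 muscle genes that fell were muscle-specific protein 20 (gene8503), a calponin-family protein, with 1804, 2003, 2036 and 1553 TPM on day 1 and 141, 128, 179.8 and 169 TPM on day 5, and titin-like gene9043, with 178 ± 12.7 TPM on day 1 and 13.9 ± 0.987 TPM on day 5. Muscle-specific protein 20 stood at 4556 ± 263 TPM on day 9, above both days.

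Genes that supply energy were higher as a group but few passed the threshold. Of 72 measured subunits of oxidative phosphorylation 71 had a higher mean level on day 5, and their median log2 fold change was 1.04. Of these 8 rose and none fell, and 5 of the 8 were male genes. With median-of-ratios scaling 14 were higher. The sum of the list was 11769, 11941, 11940.0 and 11365 TPM on day 1 and 24509, 24127, 24195 and 24841 TPM on day 5, 2.08-fold higher. The subunit that rose most was cytochrome c oxidase subunit 7A1 (gene3464), with 0.410, 1.19, 0 and 0.410 TPM on day 1 and 365, 389, 439 and 385 TPM on day 5, and it was no male gene. Subunit 6C-1 (gene5722) was 1 of the male genes and held 14.1, 0.330, 49.3 and 25.2 TPM on day 5, so that replicate 2 was at the level of day 1. Of 32 enzymes of the tricarboxylic acid cycle and of energy shuttles 9 rose, 6 of them male genes, and none fell (median 1.64), and 16 were higher with median-of-ratios scaling. Arginine kinase (gene659), which buffers ATP in insect muscle, was among the other 3, with 273, 266, 247 and 298 TPM on day 1 and 2048, 2007, 1955 and 1999 TPM on day 5. Mitochondrial glycerol-3-phosphate dehydrogenase (gene12199), of the shuttle that feeds flight muscle mitochondria, rose from 45.02 ± 1.09 to 259.9 ± 4.85 TPM.

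**Figure D2:**
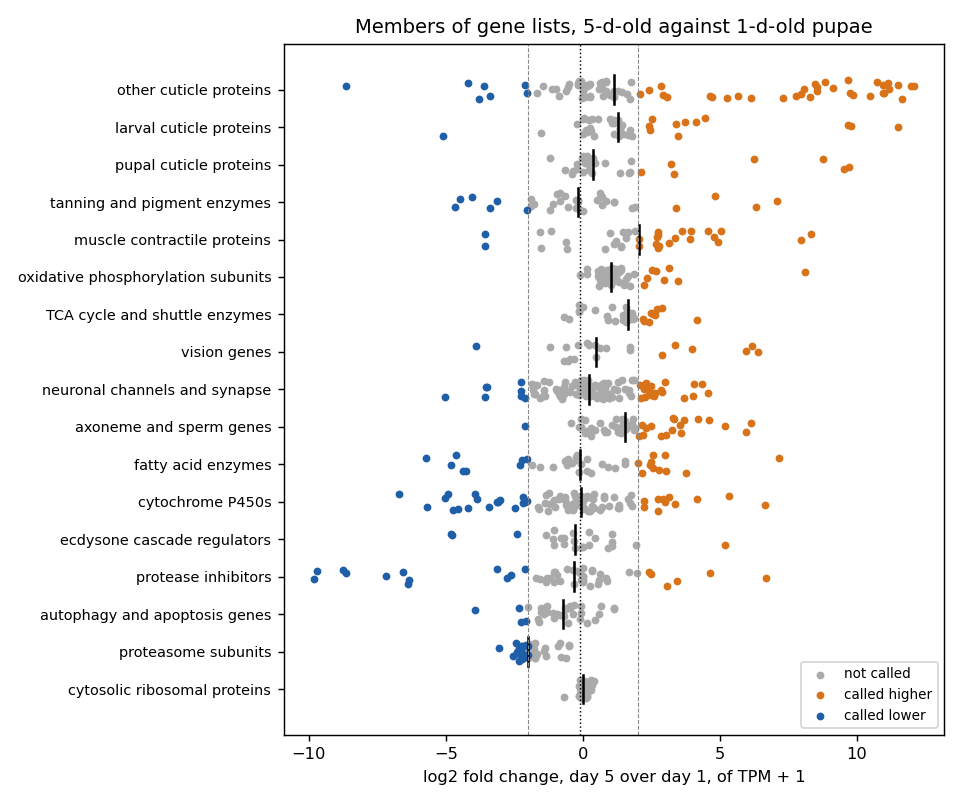
Log2 fold change, day 5 over day 1, on the scale of TPM + 1, of every tested member of 17 gene lists. Orange and blue points are called higher and lower, grey points are not called, black bars are list medians, the dotted line is the median of all genes and dashed lines mark the threshold of 2. Cuticle and muscle members reach furthest right, the proteasome subunits cluster near -2 and the ribosomal proteins near 0.

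Regulators of the ecdysone and juvenile hormone responses were unequally changed. Of 24 measured members of the ecdysone cascade 1 rose and 3 fell. Broad-complex genes, whose products direct the larva-to-pupa switch in insects, made up the falls. The most abundant of them (gene4395) held 3759, 3927, 4007 and 3464 TPM on day 1 and 800.2, 721, 710.0 and 625 TPM on day 5, a log2 fold change of -2.41 (SE 0.11, limma adjusted p = 3.04e-23), but only -1.86 with median-of-ratios scaling, under the threshold. Broad-complex gene6455 went from 105, 112, 107 and 90.7 TPM to 2.58, 2.73, 2.80 and 2.61 TPM and isoform 6-like gene6456 from 31.8 ± 4.88 to 0.193 ± 0.113 TPM. The table has 6 Broad-complex genes, which may be parts of 1 locus, and the other 3 were not called. Of these, gene4253 was higher, with 1.77 ± 0.419 TPM on day 1 and 4.25 ± 0.990 TPM on day 5. The others were lower, gene11972 with 28.5 ± 3.47 and 13.1 ± 0.719 TPM and gene4868 with 37.0 ± 1.79 and 16.6 ± 0.540 TPM. Krueppel homolog 1 (gene12603), a juvenile hormone response gene that holds back adult development, held 46.9, 52.6, 46.3 and 51.3 TPM on day 1 and 0.720, 1.18, 0.950 and 0.790 TPM on day 5, a log2 fold change of -4.72 (SE 0.18, limma adjusted p = 9.53e-26).

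The nuclear receptor HR38 (gene13483), needed for adult cuticle in Drosophila, was the only regulator of that cascade called higher. It was listed at 0 in all 4 libraries of day 1 and held 32.9, 37.7, 39.4 and 30.7 TPM on day 5 (limma adjusted p = 3.75e-30), and 2.67 ± 0.508 TPM on day 9. HR3 (gene5893), which acts between the early and the prepupal responses in Drosophila, held 8.66, 11.7, 10.4 and 10.1 TPM on day 1 and 43.0, 40.1, 39.2 and 43.9 TPM on day 5. Its log2 fold change of 1.93 was just under the threshold and was 2.42 with median-of-ratios scaling. The ecdysone receptor (gene4707) was not called, with 33.6 ± 13.5 TPM on day 1 and 15.7 ± 5.54 TPM on day 5, and neither was its partner Ultraspiracle (gene8895), with 20.3 ± 1.24 TPM on day 1 and 11.4 ± 0.628 TPM on day 5. Ecdysone-induced protein 75B (gene0) was not called, with 46.7 ± 3.32 TPM on day 1 and 28.8 ± 1.104 TPM on day 5. Ecdysone-induced protein 78C (gene1483) had 50.4 ± 12.4 TPM on day 1 and 66.4 ± 4.37 TPM on day 5, and was at 4.37 ± 1.014 TPM on day 9. FTZ-F1 (gene1101), which sets competence for later ecdysone pulses in Drosophila, had only 0.438 ± 0.0911 TPM on day 1 and 1.99 ± 0.234 TPM on day 5 and was at 63.9 ± 4.10 TPM on day 9.

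**Figure D3:**
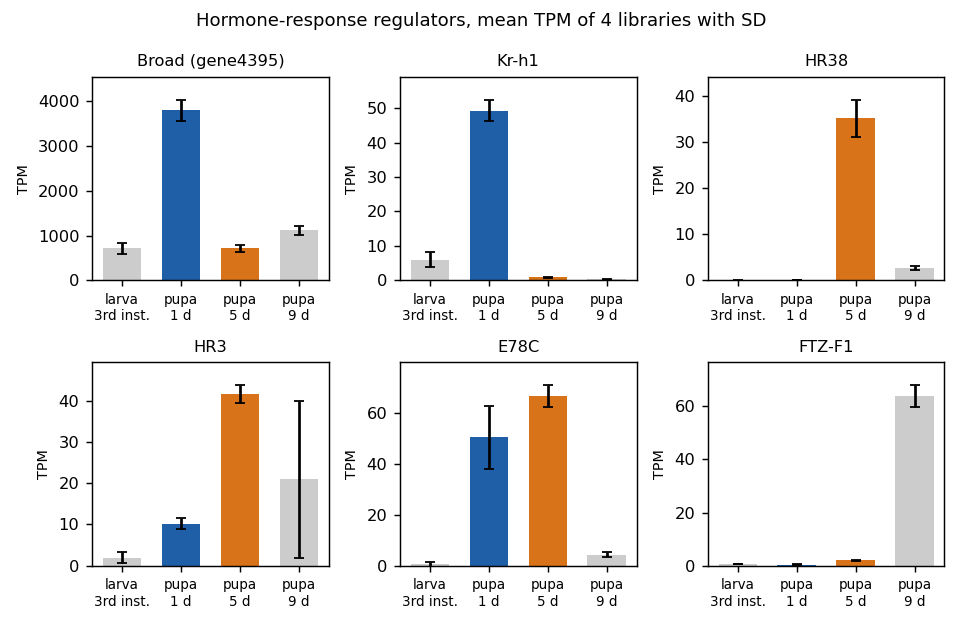
Mean TPM (y axis, each panel with its own scale from 0) of 6 regulators in third-instar larvae and in 1-d-old, 5-d-old and 9-d-old pupae, with the SD over 4 libraries as error bars. Broad and Krueppel homolog 1 were highest in 1-d-old pupae, HR38, HR3 and E78C in 5-d-old pupae and FTZ-F1 in 9-d-old pupae among the 4 stages drawn.

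The list of ecdysteroid synthesis and turnover genes held 1 fall, and that gene makes no steroid. Eclosion hormone (gene11836), the peptide that starts the shedding of the old cuticle, held 30.2, 34.3, 26.6 and 21.1 TPM on day 1 and 1.88, 0.860, 1.79 and 1.86 TPM on day 5, a log2 fold change of -3.49 (SE 0.16, limma adjusted p = 8.82e-23). The cuticle-hardening peptide bursicon (gene10132) was not called, with 1.42 ± 2.02 TPM on day 1 and 6.32 ± 1.70 TPM on day 5 and a log2 fold change of 1.93, or 2.103 and past the threshold with median-of-ratios scaling, nor was its partner (gene6255), with 0.285 ± 0.367 TPM on day 1 and 3.33 ± 0.906 TPM on day 5. The 5 genes of the list named as P450s and ecdysone 20-monooxygenase were not called, and the largest of their changes was that of P450 315a1 (gene11123), with 2.01 ± 0.443 TPM on day 1 and 0.285 ± 0.137 TPM on day 5. Of 17 juvenile hormone and takeout genes 3 rose and 3 fell. All 3 that rose were takeout genes, a family of small carrier proteins, such as gene6006, which rose from 1.57 ± 0.248 to 91.1 ± 7.61 TPM. Takeout gene11624 fell from 83.0 ± 13.6 to 9.59 ± 2.16 TPM.

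Proteasome genes were lower on day 5, and how many were called depended on scaling. Of 45 measured proteasome subunits, the parts of the main protein-degrading complex of cells, 22 fell and none rose, and all 45 had a lower mean. The median log2 fold change was -1.997 as deposited and -1.45 with median-of-ratios scaling, with which only 2 subunits were past the threshold. The summed level was 12212, 11932, 12369 and 11751 TPM on day 1 and 3087, 2912, 2944 and 2861 TPM on day 5, 4.09-fold lower. Subunit beta type-2 (gene3516), of the catalytic core, held 542, 476, 499.8 and 481 TPM on day 1 and 123, 107, 102 and 109 TPM on day 5, and the regulatory subunit 8 (gene4392), of the cap, fell from 421 ± 13.7 to 88.3 ± 3.84 TPM. The levels on day 9 were 142 ± 5.31 and 141 ± 8.83 TPM. The 74 cytosolic ribosomal proteins gave no call, with a median of 0.01 as deposited and 0.56 with the scaling, and summed levels that overlapped between the days (150588 and 155319.9 TPM).

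Of 35 genes of autophagy and apoptosis 4 fell and none rose, and with median-of-ratios scaling 1 was called lower (median -0.71 as deposited, -0.25 scaled). A caspase-like gene (gene208), of the proteases that carry out cell death, was at 9.67, 17.7, 16.6 and 14.8 TPM on day 1 and at 0, 0, 0 and 0.0600 TPM on day 5. Caspase-3-like gene1264 fell from 52 ± 7.25 to 10.5 ± 3.59 TPM. Cell death abnormality protein 1 (gene5237), named after the worm receptor for engulfing dead cells, fell from 703 ± 106 to 139.9 ± 17.0 TPM, and autophagy-related protein 13 (gene7930), which starts autophagosomes, from 100.4 ± 10.1 to 22.8 ± 1.63 TPM. Of these 4 genes, only gene208 was past the threshold with the scaling. Of 23 cathepsins and matrix proteases 4 fell and 1 rose. Matrix metalloproteinase-14 (gene13006), which cuts the matrix between cells, held 496, 514, 466 and 501 TPM on day 1 and 90.5, 85.5, 82.4 and 75.8 TPM on day 5. ADAMTS-1 (gene2194), another secreted metalloprotease, fell from 162 ± 18.5 to 18.7 ± 1.37 TPM. Of 78 trypsins and chymotrypsins, the markers fixed for gut, 5 rose and 3 fell, with 1 lower after median-of-ratios scaling. Their median log2 fold change was -0.02. The sum was 844 TPM on day 1 and 414 TPM on day 5 with no overlap between libraries. Most of that difference was 1 gene, trypsin alpha-like gene10227, which fell from 469 ± 80.4 to 105 ± 16.7 TPM. It held 89.2 ± 45.1 TPM in third-instar larvae.

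Genes in the list of storage proteins of the larval fat body did not move as 1 group. Fat-body protein 1-like (gene12530), in Drosophila the receptor that takes up storage proteins, held 19854, 16370.4, 18472 and 15821 TPM on day 1 and 1328, 1044, 857 and 983 TPM on day 5, and fat-body protein 1 (gene12529) fell from 9767 ± 463 to 1112 ± 133 TPM. Larval serum protein 2 (gene6969), a storage protein, rose instead, from 1261, 659, 1567 and 953 TPM to 6913, 7021, 7369 and 5801 TPM, a log2 fold change of 2.68 (SE 0.40, limma adjusted p = 1.79e-07). Larval serum protein 1 beta chain-like gene341 had 1037 ± 51.3 TPM on day 1 and 4006 ± 381 TPM on day 5 and was not called, with a log2 fold change of 1.95, or 2.498 and past the threshold with median-of-ratios scaling. Of the 10 genes in the list 1 rose and 2 fell as deposited, and 3 were higher with the scaling. The 2 that fell were the fat-body protein 1 genes, named after the receptor and not after a storage protein. In all, 5 of the 10 had a positive log2 fold change. Among the markers fixed for the larval fat body, both directions therefore occurred.

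Immune genes differed widely between libraries of the same day. Of 58 antimicrobial and recognition genes 3 rose and 6 fell, and without replicate 2 of day 5 the counts were 1 and 9. The list summed to 1688, 2127, 3019 and 3453 TPM in the libraries of day 1 and to 2466, 5899, 1337 and 931 TPM in those of day 5, so that replicate 2 was above all others and the days overlapped. Cecropin-1-like gene3362, an antimicrobial peptide, held 0, 0, 13.04 and 0 TPM on day 1 and 42.7, 519, 40.9 and 0 TPM on day 5, and its log2 fold change was 4.01 with and 2.66 without replicate 2, where it was no longer called. Lysozyme c-1 (gene1941), which cuts bacterial walls, fell from 251 ± 12 to 50.2 ± 27.4 TPM, by 2.48 log2 units or 1.92 with median-of-ratios scaling. A putative lysozyme-like gene (gene9133) rose from 1.12 ± 0.319 to 93.9 ± 16.5 TPM in libraries that did not overlap. What sets replicate 2 apart in this list was not tested.

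Genes of neurons and of the eye rose in part. Of 22 vision genes 6 rose and 1 fell. Chaoptin (gene1124), a photoreceptor adhesion protein fixed as a marker of the eye, held 0.760, 0.630, 0.450 and 0.470 TPM on day 1 and 125, 128, 136 and 138 TPM on day 5, a log2 fold change of 6.399 (SE 0.10, limma adjusted p = 3.14e-40). The light-response channel TRP (gene7845) rose from 0.375 ± 0.0473 to 97.9 ± 6.61 TPM and the photoreceptor myosin kinase ninaC (gene12618) from 0.422 ± 0.120 to 87.8 ± 4.91 TPM. Opsins, the light-sensing pigments, were not called higher: opsin Rh6 (gene2193) held 14.2, 15.8, 15.5 and 18.02 TPM on day 1 and 0.1, 0.13, 0.2 and 0.05 TPM on day 5, a log2 fold change of -3.91, and 40.1 ± 2.96 TPM on day 9. Opsin Rh1 (gene4010) was not called, with 1.93 ± 0.949 TPM on day 1 and 1.14 ± 0.792 TPM on day 5. Of 118 neuronal genes 20 rose and 8 fell, and 4 were lower with median-of-ratios scaling. The summed level of the neuronal list, tested or not, did not rise, with 1999 TPM on day 1 and 1797 TPM on day 5 in libraries that overlapped. SNAP-25 (gene12774), of the vesicle fusion complex of synapses, rose from 2.48 ± 0.747 to 43.0 ± 5.06 TPM. Acetylcholine receptor subunits went both ways: beta-like 1 (gene6047) held 0.950, 1.19, 0.780 and 1.21 TPM on day 1 and 32.1, 31.8, 31.3 and 31.6 TPM on day 5, whereas subunit beta gene9096 fell from 78.8 ± 5.64 to 5.88 ± 1.51 TPM. The neuropeptide Y receptor (gene9129) was called with widely spread values of 203, 364, 44.5 and 575 TPM on day 5.

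Of 38 odorant-binding and chemosensory proteins, secreted carriers of small molecules, 4 rose and 3 fell. Odorant-binding protein 99a (gene6292) rose from 789 ± 53.6 to 3560.0 ± 139 TPM and 99a-like gene3061 fell from 115, 133, 136 and 129 TPM to 0.720, 1.92, 0.940 and 0.200 TPM. Ejaculatory bulb-specific protein 3 (gene12888), a chemosensory-type protein named from Drosophila males, rose from 36.8 ± 4.16 to 1438 ± 88.1 TPM, with no library of day 5 apart. None of 85 tested odorant, gustatory and ionotropic receptors was called. All 132 receptors of the list, tested or not, summed to 36.7 TPM on day 1 and 27.7 TPM on day 5. At such low levels a change of 2 log2 units of TPM + 1 was hardly within reach, so the lack of calls says little. The changes ran from -1.31 to 1.19.

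**Figure D4:**
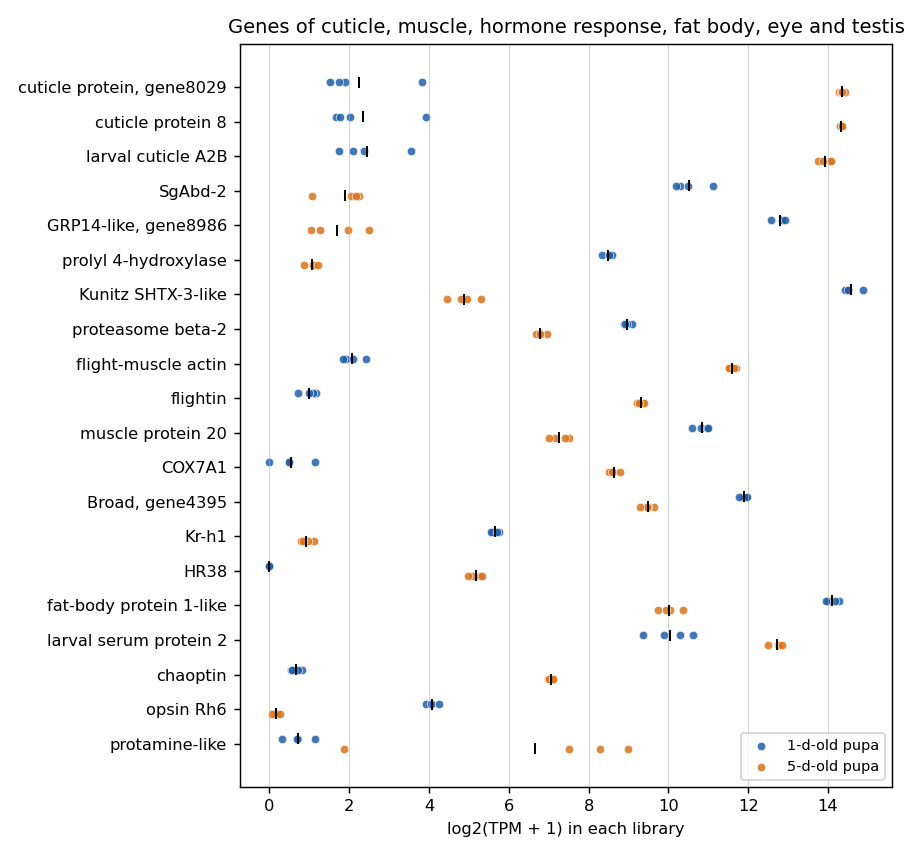
Level of 20 genes in each of the 8 libraries, as log2(TPM + 1) on the x axis, with 1-d-old pupae in blue, 5-d-old pupae in orange and the mean of each day as a black tick. The days do not overlap in any gene drawn, which was a condition of naming for the largest rises and falls. The protamine-like gene is the one whose 5-d-old libraries spread widely, from 2.62 to 503 TPM. GRP14-like is gibberellin-regulated protein 14-like.

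Sperm genes were high in 3 of the 4 pools of 5-d-old pupae. Of 50 axoneme and sperm genes, which build the sperm tail and pack sperm DNA, 18 rose and 1 fell, and 17 of the 18 were male genes. With median-of-ratios scaling none was lower. The list summed to 152, 149, 142 and 158 TPM in the libraries of day 1 and to 838, 158, 2150.0 and 1336 TPM in those of day 5, so that replicate 2 was at the level of day 1. Without it 26 members were higher. Protamine-like gene5345, which compacts sperm DNA, held 0.640, 1.19, 0.610 and 0.250 TPM on day 1 and 182, 2.62, 503 and 313 TPM on day 5, and its log2 fold change was 5.95 with and 7.55 without replicate 2. Outer dense fiber protein 3 (gene3542) differed from these, with 69.9, 79.3, 75.4 and 65.8 TPM on day 5 of which replicate 2 was the highest, and 3.12 ± 1.03 TPM on day 1. The 858 male genes together took 0.199% to 0.237% of TPM in the libraries of day 1. On day 5 they took 1.00%, 0.139%, 2.56% and 1.62%. They took 0.0582% to 0.0671% in 1-d-old females and 3.39% to 3.94% in 1-d-old males, the libraries by which they were chosen, so that this gap was set in advance. Of the 1226 genes higher on day 5, 410 (33.4%) were male genes, and 816 were not. The sex of the pooled pupae is not given in the labels, so sex and replicate cannot be told apart in this library.

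**Figure D5:**
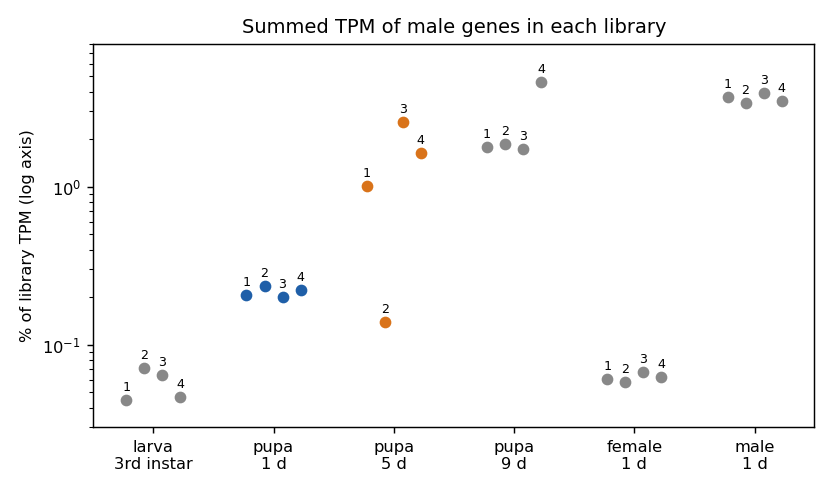
Percent of a library's TPM (log axis) taken by the 858 male genes in each library, numbered by replicate, for third-instar larvae, 1-d-old, 5-d-old and 9-d-old pupae and 1-d-old adults of each sex. Replicate 2 of the 5-d-old pupae, at 0.139%, lies below the 1-d-old pupae, and the other 3 lie between 1.00% and 2.56%. The gap between the adult sexes follows from how the male genes were chosen.

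Enzymes of lipid and xenobiotic metabolism moved in both directions. Of 40 fatty acid elongases, desaturases and acyl-CoA reductases 11 rose and 8 fell, and 5 were lower with median-of-ratios scaling. A fatty acyl-CoA reductase (gene10246), of the enzymes that make alcohols for waxes, held 4.13, 2.77, 3.75 and 4.69 TPM on day 1 and 674, 663, 676 and 702 TPM on day 5, while acyl-CoA reductase 1 gene2999 fell from 36.3 ± 4.07 to 0.330 ± 0.218 TPM. Of 89 cytochrome P450s 11 rose and 18 fell, and the sum of the list was 2733, 2589, 2521 and 2618 TPM on day 1 and 846, 814, 763 and 705 TPM on day 5. P450 303a1 (gene3532), linked to bristle development in Drosophila, rose from 0, 0.240, 0.0300 and 0.140 TPM to 125, 107, 109 and 98.8 TPM and stood at 0.403 ± 0.0741 TPM on day 9. P450 4g15 (gene3866), of the family that makes cuticular hydrocarbons, rose from 3.03 ± 1.44 to 157 ± 19.1 TPM. Mitochondrial P450s of family 12 were among the falls, such as gene9527, from 327 ± 56.5 to 11.02 ± 0.753 TPM, and gene3251, from 316 ± 18.3 to 9.54 ± 2.41 TPM. Of 59 glutathione and UDP-sugar transferases 9 rose and 5 fell. Glutathione S-transferase 1-1-like (gene1269) rose from 0.438 ± 0.305 to 175 ± 15.01 TPM, and UDP-glucuronosyltransferase 2B13-like (gene13284) fell from 224 ± 59.9 to 0.960 ± 0.285 TPM.

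Few growth and patterning genes were called. Of 66 genes of DNA replication and the cell cycle 3 fell and 1 rose, and 7 had a higher mean. The falls were 1 with median-of-ratios scaling, 1 without replicate 2 of day 5 and 5 without replicate 3. The 1 rise, of Nuf2-like gene2496, was that of a male gene, with 0.860, 0.220, 0 and 0 TPM on day 1 and 13.5, 0.240, 38.96 and 21.6 TPM on day 5, so that the days overlapped. Cyclin-dependent kinase 1 (gene1682), which drives cells into mitosis, fell from 26.3 ± 3.42 to 3.54 ± 0.971 TPM, and polo kinase (gene311), which acts on the spindle, from 18.2 ± 1.16 to 3.35 ± 1.58 TPM. The fall of polo was 2.22 log2 units and was 1.96 without replicate 2 of day 5 and 1.71 with median-of-ratios scaling, both under the threshold. Of 81 genes in the homeobox list 2 fell and none rose, and with median-of-ratios scaling none was called lower and 2 were called higher. These 2 were vnd (gene6357) and spalt-major (gene9684), with log2 fold changes of 2.11 and 2.02 scaled and 1.77 and 1.75 as deposited. The list was drawn by product name, and spalt-major is a zinc finger protein without a homeobox. The fall of deformed (gene1412), a head-segment identity gene, rested on 1 library, with 1.02, 91.9, 1.04 and 0.590 TPM on day 1 and 0.210, 0.190, 0.150 and 0.240 TPM on day 5, and without day 1 replicate 2 the log2 fold change was -0.64.

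Many of the genes called were at their peak on the day they were higher. Among the 13 stages, 416 (33.9%) of the higher genes had their highest mean in 5-d-old pupae, against 9.66% of all genes tested, and 584 (68.5%) of the lower genes had it in 1-d-old pupae, against 16.4%. Another 457 (37.3%) of the higher genes peaked in 9-d-old males, against 13.1% of all genes. A peak on the compared day is favoured by the call itself, so these shares describe the genes and test nothing. Genes of the reference annotation were called more often (8.40% higher and 5.81% lower of 13019) than newly assembled genes (3.26% and 2.33% of 4078), which lack a product name. On day 5, 61 of the higher genes were above 1000 TPM, and on day 1, 45 of the lower genes.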

How the data were processed

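Whole-animal RNA of 52 pools, 4 per life stage, was sequenced on an Illumina platform. TPM values per gene were computed by the authors, whose steps were trimming (SeqPrep, Sickle), alignment (HISAT2 2.1.0), assembly (StringTie) and quantification (RSEM 1.3.1), and were used as deposited. Pools were not merged. The authors tested counts with DESeq2. That test was not repeated because counts were not used here, and read depth cannot be read from TPM, so no counting error is given for low values. The genome build is not given in the sources used here, and no sequence was read. Every value column was matched to 1 library by name.

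Genes with TPM above 0.1 in at least 4 of 52 libraries were tested (17097 of 18241) with limma 3.58.1 in R 4.3.3 on log2(TPM + 1), with 13 stage means, a variance trend and robust estimation, and Benjamini-Hochberg adjustment. The thresholds for a call, given in the report, follow the study's methods. The fit was tested on simulated data. Sums, counts and plots were made with Python 3.11.15 (matplotlib 3.10.9, numpy 2.4.6, scipy 1.17.1, pandas 2.3.3). Median-of-ratios scaling divided each library by a size factor from 6902 genes and was, with another pseudocount, filter, threshold, variance model, set of libraries, a replicate block and the omission of each library, among the alternatives.

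Genes were named by 4 rules: the 12 largest rises and the 12 largest falls among called, annotated genes without overlap between days and with 10 TPM or more on the higher day, up to 4 of the most abundant called members of a list in each direction, all regulators, ecdysteroid genes and actins, and the 5 most abundant genes of each day. The text gives part of these, and genes outside the rules are said to be chosen afterwards. In addition, markers of eye, testis, muscle and fat body were given, and in a few lists a member that contrasts with those named by rule. The comparison, the lists (34, by product name) and the genes were chosen with earlier results of these data known, so no list was tested. A gene family whose members were counted separately may share reads. The other 11 stages served only for the variance and for levels given as description.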

Additional observations from a re-analysis of the deposited data

Results flagged for a closer look

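For each gene named in the text and each list's summed level, the 4 libraries of a day were searched for 1 library far from the other 3, by a gap above Dixon's critical share of the whole range for 4 values. This picked out 23 of 302 groups of 4 values, and chance alone picks about 1 in 20, or 15.1. Groups share libraries and genes share lists, so they are not independent.

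Replicate 4 of the 1-d-old pupa was the library apart in 11 of the 23. It was above the other 3 libraries of its day in several genes that rose by day 5: cuticle protein (gene10439) at 5.43 TPM against 1.24 to 1.63, cuticle protein 8 (gene1535) at 14.08 against 2.20 to 3.06, ACP-20 (gene1537) at 0.41 against 0.11 to 0.13, keratin-associated protein 19-2 (gene8028) at 3.38 against 0.19 to 0.49, cuticle protein 16.5 (gene8029) at 13.05 against 1.88 to 2.71 and ice-structuring glycoprotein (gene9097) at 6.23 against 0.77 to 1.25. It was also above them in the Kunitz inhibitor gene2467, at 29990.77 TPM against 21901.80 to 23276.23, in extensin-like gene8985, at 12499.25 against 10007.75 to 10250.08, and in the sum of the trypsins and chymotrypsins, at 1001.32 against 782.40 to 802.72. It was below them in ecdysone-induced protein 78C (gene1483), at 31.94 TPM against 55.23 to 57.56, and in the sum of the odorant-binding and chemosensory proteins, at 6529.79 against 7638.99 to 7853.61. Beyond the named genes, this library held the highest value of the day in 43 of the 61 genes called higher with at least 1000 TPM on day 5, against 8, 8 and 2 for replicates 1, 2 and 3. Among the 22 of these in the lists of cuticle proteins it did so in 20, with a summed level of 118.0 TPM against 45.8, 55.1 and 42.2 TPM. What sets this library apart was not tested. Leaving this library out changed no call of the genes named in this paragraph.

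Replicate 2 of the 5-d-old pupa was apart in cecropin-1-like gene3362, with 518.90 TPM against 0 to 42.73, in tyrosine 3-monooxygenase (gene8401), with 42.56 against 6.97 to 10.49, and in eclosion hormone (gene11836), with 0.86 against 1.79 to 1.88. Replicate 3 of the 5-d-old pupa was apart in extensin-like gene8985, with 60.71 TPM against 24.79 to 29.50, and in the accessory gland inhibitor gene2463, with 0.66 against 4.87 to 5.30. Replicate 4 of that day held 0.06 TPM of the caspase-like gene208, listed at 0 in the others, and a lower sum of trypsins and chymotrypsins, 326.55 against 439.06 to 448.13 TPM. Replicate 1 of the day had a higher sum of autophagy and apoptosis genes, 855.02 against 782.30 to 794.12 TPM.

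Among the other 1-d-old pupae, replicate 2 held 91.90 TPM of deformed (gene1412) against 0.59 to 1.04 in the others, and 196.95 TPM of titin-like gene9043 against 169.77 to 173.62. Replicate 3 held 13.04 TPM of gene3362, listed at 0 in the others, and replicate 1 held 2.23 TPM of cytochrome c oxidase subunit 6C-1 (gene5722) against 0 to 0.31.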

How the results depend on the processing

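The counts of 1226 higher and 852 lower genes depended on the scale. With a pseudocount of 0.1 they were 2440 and 1345, and with a log2 threshold of 1 they were 2574 and 2762. With median-of-ratios scaling, whose size factors were 1.45 to 1.52 on day 1 and 0.963 to 1.04 on day 5, 469 genes were lower, and 476 when replicate 2 of day 5 was also left out, an alternative chosen after seeing the data. The other filters, the fit on 8 libraries and the fit without a variance trend kept both counts within 1.5 times, and leaving out 1 library gave 1110 to 1367 higher and 830 to 880 lower genes. A fit with the replicate block gave 1111 and 827, but replicate numbers did not pair libraries: deviations of the same number correlated by 0.041, 0.005, -0.012 and -0.045.

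For the 117 named genes only the scaling, the fit on 8 libraries, the replicate block and the omission of libraries were run, the other alternatives for the 2 counts alone. Under these, 100 kept direction and call, and none changed direction. Median-of-ratios scaling took 9 genes under the threshold of 2, mostly proteasome, autophagy, cell cycle and Broad genes, and 5 past it. The cecropin gene3362 and deformed (gene1412) were not called in the 8 libraries alone or with the replicate block, and cytochrome c oxidase subunit 6C-1 (gene5722) and Nuf2-like gene2496 were not called with the block. Of 68 counts of list members 17 moved over 1.5 times with the scaling, and leaving out a library moved 0 to 4. Without replicate 3 of day 5, DNA replication and cell cycle genes had 5 falls in place of 3, and without replicate 2 they had 1. The other counts moved in this way were of 4 members or fewer, except the immune falls, 6 and without day 1 replicate 4 only 3. Read depth cannot be read from TPM, so the precision of low levels is unknown.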

Other observations

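Purine synthesis genes, which are outside the lists, were picked after their values were seen and are given as counts and levels. Of 13 tested enzymes of purine synthesis, which make the bases for RNA and DNA, 4 fell and none rose, also with median-of-ratios scaling, and all 13 had a negative log2 fold change (median -1.02, scaled -0.47). The bifunctional enzyme PURH (gene1448), of the last steps, fell from 1927 ± 139 to 146 ± 36.1 TPM (SD, n = 4), a log2 fold change of -3.75 by limma. The multifunctional protein ADE2 (gene8522) fell from 558 ± 146 to 84.3 ± 10.5 TPM, the trifunctional adenosine-3 (gene9362) from 419 ± 39.4 to 27.8 ± 3.41 TPM and amidophosphoribosyltransferase (gene9953), the first enzyme of the path, from 359 ± 37.6 to 29.4 ± 3.79 TPM.

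An uncharacterized gene (gene7382) was above the level for testing in only 3 of 52 libraries and was not tested. It was listed at 0 in replicate 1 of the 1-d-old pupa, at 472, 1600 and 1873 TPM in the other 3, and at 0 in all 4 libraries of the 5-d-old pupa.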
